A study of Rattus norvegicus with 9 samples.

Results

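The genes described are 8 inflammatory mediators, and they were followed in rat hypothalamic tissue after a lesion. They are the cytokine genes Il1b, Il6 and Tnf, the chemokine genes Ccl2, Cxcl1 and Cxcl10, the adhesion molecule gene Icam1 and the prostaglandin synthase gene Ptgs2. The members were chosen by Ensembl ID, and all 8 IDs were found among the 34784 rows of the deposited count table. The list that defined the group pairs each ID with its symbol. The count table holds IDs only, so this pairing was not checked against a second source. The IDs are ENSRNOG00000004649 for Il1b, ENSRNOG00000010278 for Il6, ENSRNOG00000055156 for Tnf, ENSRNOG00000007159 for Ccl2, ENSRNOG00000002802 for Cxcl1, ENSRNOG00000022256 for Cxcl10, ENSRNOG00000020679 for Icam1 and ENSRNOG00000002525 for Ptgs2.

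RNA was sequenced in bulk from S-D rat tissue labelled as hypothalamic SON+PVN, the supraoptic and paraventricular nuclei. The groups were 3 libraries taken 7 d after PEL surgery, 3 taken 1 d after PEL surgery and 3 Control libraries. In the published study PEL stands for an electrical lesion of the pituitary stalk, which injures the axons of the vasopressin and oxytocin neurons. No transgene or drug is labelled in any group, and the labels give neither the age or sex of the rats, nor the handling of the Control rats, nor whether each library came from its own animal. P-values therefore measure the spread between these libraries, which may be technical in part.

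Total counts were 17014260 to 18685921 at 7 d, 13338433 to 17294334 at 1 d and 18948576 to 21012998 in Control. A count of 3, about the one-sided 95% upper limit for a count of 0, corresponded to between 0.141 and 0.212 CPM in a library. The counting intervals given below are two-sided. CPM values are counts per 1000000 counts of the TMM-scaled library size. Control replicate 1 stood apart from the other Control libraries. For each pair of libraries a chi-square statistic was divided by its degrees of freedom. It covered only genes that reached a minimum summed count in that pair. It was 39.4 for Control replicate 1 against Control replicate 2 and 40.5 against Control replicate 3. Those 2 libraries gave 19.4 against each other. At 1 d, replicate 3 gave 17.6 against replicate 1 and 17.8 against replicate 2, which gave 7.18 between them. It held the highest 1 d counts of Il1b, Il6, Tnf and Cxcl1, and results that rest on it are given with and without it. Because only the 8 members had a symbol, markers of the tissue and of its cell types could not be looked up among the IDs, and the tissue label was not checked.

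In injured brain these genes belong to the early inflammatory response. Microglia, infiltrating leukocytes, astrocytes and endothelial cells make interleukin-1β, interleukin-6 and tumour necrosis factor, which act on neighbouring cells through their receptors. The receptors of interleukin-1β and tumour necrosis factor switch on transcription factors such as NF-κB. Targets of NF-κB include chemokines that draw in leukocytes, adhesion molecules on vessel walls and the prostaglandin-forming enzyme COX-2. In the hypothalamus interleukin-1β and prostaglandins are also known as mediators of fever and of stress hormone release.

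Regulatory sequence upstream of the genes is shown for Cxcl10, the most variable of the 3 genes with enough counts for a test, and for Ptgs2, which varied less. Both are RefSeq sequences of build GRCr8, the 250 bases before the annotated gene start, written 5′ to 3′ on the gene's strand. Capitals mark matches on either strand to motifs for NF-κB (GGANNTTCC), for interferon-activated factors (ISRE, GAAANNGAA), for AP-1 (TGANTCA) and for the cyclic AMP response element (CRE, TGACGTCA).
Cxcl10, chr14:15988816-15989065, + strand: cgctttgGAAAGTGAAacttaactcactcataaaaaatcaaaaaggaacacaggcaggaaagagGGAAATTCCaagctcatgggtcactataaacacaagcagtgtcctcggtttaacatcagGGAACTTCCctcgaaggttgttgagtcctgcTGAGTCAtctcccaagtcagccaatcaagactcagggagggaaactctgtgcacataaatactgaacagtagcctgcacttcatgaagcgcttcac
Ptgs2, chr13:64713813-64714062, + strand: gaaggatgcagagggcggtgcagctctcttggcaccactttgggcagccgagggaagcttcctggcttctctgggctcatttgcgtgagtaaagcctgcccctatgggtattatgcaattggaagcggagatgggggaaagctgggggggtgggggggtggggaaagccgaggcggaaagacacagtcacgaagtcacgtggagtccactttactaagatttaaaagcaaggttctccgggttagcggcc

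The Cxcl10 window held the ISRE motif at position -243 from the gene start, the AP-1 motif at -96 and the NF-κB motif at -186 and -127, with no overlap between matches. The Ptgs2 window held none of the 4 motifs. The window of Icam1, the least variable of the 3 tested genes, is not shown and held the NF-κB motif at -218. A window was at hand for 7 of the 8 members. The NF-κB motif was present in 5 of these 7, namely Il6, Tnf, Cxcl1, Cxcl10 and Icam1, and in 3.36% of the 33469 windows of all genes. The ISRE motif was present in 1 of 7, against 8.12% of all windows, and the AP-1 motif in 1 of 7, against 6.34%. The CRE motif was found upstream of Il6 alone among the 7, and in 1.59% of all windows. A match is a stretch of letters and not a measured binding site. The motifs were chosen with the sequences in view, so these shares are a description and not a test.

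None of the 8 genes was called changed at either time after surgery. Only Cxcl10, Icam1 and Ptgs2 had enough counts to pass the filter on low counts. Of these 3 genes, 0 were called at 1 d against Control, 0 at 7 d against Control and 0 at 7 d against 1 d (edgeR, adjusted p below 0.05). Of all 17345 genes tested, 20.4% were called at 1 d against Control, 1.02% at 7 d against Control and 29.2% at 7 d against 1 d. At an unadjusted p below 0.05 the number among the 3 genes was also 0 in each comparison, and DESeq2 and limma-voom called 0 as well. DESeq2 returned a fold change but no p-value, adjusted or not, for Cxcl10, so its 0 covers Icam1 and Ptgs2 only. The other 5 genes, Il1b, Il6, Tnf, Ccl2 and Cxcl1, had between 9 and 70 counts in the 9 libraries together, too few for the filter, and their counts are given as such. In a fit with no filter, in which all 8 genes have a test, 0 of 8 were called in each comparison, while 12.8%, 0.784% and 18.4% of its 24996 genes were called in the same order of comparisons. At an unadjusted p below 0.05 that fit held 0 of 8 at 1 d against Control, 1 at 7 d against Control (Ccl2) and 1 at 7 d against 1 d (Il1b). The share of all genes at that unadjusted threshold was not counted in either fit, so these numbers are not read as a result about the members.

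**Figure D1:**
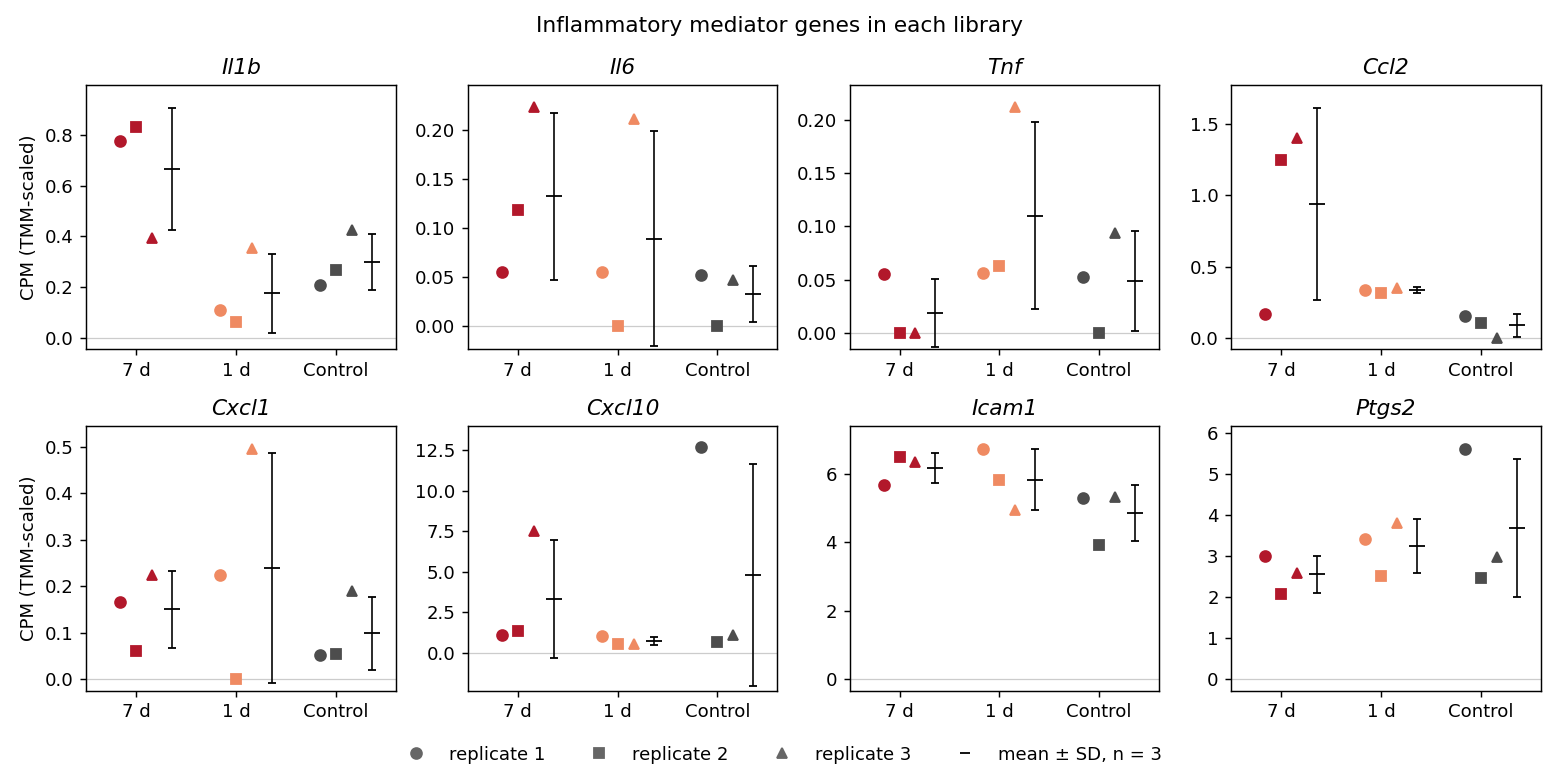
CPM of each member in each library (points, shaped by replicate number) at 7 d, at 1 d and in Control, with the mean and SD of 3 libraries beside them and a separate linear axis for each gene. Icam1 lies between 3.91 and 6.71 CPM in all 9 libraries, while Cxcl10 stands at 7.51 CPM in 7 d replicate 3 and at 12.7 CPM in Control replicate 1, against at most 1.37 CPM in the other 7 libraries.

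Il1b encodes interleukin-1β, a cytokine made chiefly by activated microglia and macrophages and released after cleavage by caspase-1. It had 14, 14 and 7 counts in the 7 d libraries, 2, 1 and 5 in the 1 d libraries and 4, 5 and 9 in the Control libraries. Scaled by depth, these were 0.776, 0.833 and 0.392 CPM at 7 d, 0.112, 0.0631 and 0.353 CPM at 1 d and 0.209, 0.268 and 0.424 CPM in Control. All 3 libraries of 7 d thus lay above all 3 of 1 d, but 7 d replicate 3 lay inside the Control range, and 1 d replicate 3 did too. The totals of the 5 low members spanned 9 to 70 counts. Of 3151 rows outside the filter with totals in that span, 14.6% had ranges that did not overlap between 7 d and 1 d. Il1b, with 61 counts in total, lay near the top of the span, so 14.6% may be too low a reference for it. Among genes that passed the filter the share was 48.8%. In bulk tissue, fewer cells of a type and less RNA per cell cannot be told apart for any of these genes.

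The summed Il1b counts were 35 at 7 d and 8 at 1 d, a depth-scaled ratio of 3.98 with a 95% counting interval of 1.81 to 9.92. Against the 18 counts of Control, the ratio was 2.18 at 7 d (1.20 to 4.08) and 0.547 at 1 d (0.206 to 1.32). These exact intervals cover counting error only and not the spread between libraries. With no filter, the log2 fold change of Il1b was 1.93 at 7 d against 1 d (SE 0.674, edgeR adjusted p = 0.0599), 1.11 at 7 d against Control (SE 0.605, adjusted p = 0.628) and -0.82 at 1 d against Control (SE 0.713, adjusted p = 0.533). The difference between 7 d and 1 d lay close to the threshold. In that fit it was called without 1 d replicate 3 (log2 fold change 2.82, adjusted p = 0.0280) and without Control replicate 1 (1.93, adjusted p = 0.0440), and the adjusted p was up to 0.207 over the 9 left-out libraries. At 1 d against Control the log2 fold change was -1.70 without 1 d replicate 3 and at most -0.43 over the other left-out libraries, with no call.

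Il6 encodes interleukin-6, which signals through gp130 and STAT3. It was at the limit of detection, with 1, 2 and 4 counts at 7 d, 1, 0 and 3 at 1 d and 1, 0 and 1 in Control. No library exceeded 0.224 CPM. The summed counts of 7 at 7 d, 4 at 1 d and 2 in Control gave depth-scaled ratios to Control of 3.92 at 7 d (95% interval for counting error 0.746 to 38.6) and 2.46 at 1 d (0.353 to 27.2). The 3 libraries of 7 d all lay above those of Control, but by a margin of less than 1 count, as 7 d replicate 1 and Control replicate 1 had 1 count each. Ranges of 7 d and Control did not overlap in 11.4% of the 3151 low rows. In the edgeR fit with no filter, the log2 fold change was 1.77 at 7 d against Control (adjusted p = 0.741) and 1.17 at 1 d against Control (adjusted p = 0.611). The 1 d value was -0.16 without 1 d replicate 3, so its sign rests on that library, and it was up to 1.72 over the other left-out libraries.

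Tnf, the gene for tumour necrosis factor, a cytokine of activated microglia and macrophages, had the fewest counts of the 8. There were 1, 0 and 0 at 7 d, 1, 1 and 3 at 1 d and 1, 0 and 2 in Control, so a single library reached 3 counts. Relative to Control, the depth-scaled sum was 0.373 times as high at 7 d, with a 95% counting interval of 0.00711 to 4.65. At 1 d it was 2.05 times as high (0.399 to 13.2). Both intervals reach well above and below 1, and a several-fold change in either direction was not detectable at this depth. With no filter, the log2 fold change was -1.15 at 7 d against Control (edgeR adjusted p = 0.829) and 0.97 at 1 d against Control (adjusted p = 0.651). Without Control replicate 3 these were -0.36 and 1.74, and without 1 d replicate 3 the 1 d value was 0.21. Without 7 d replicate 1 no count was left at 7 d.

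Ccl2 encodes the monocyte-attracting chemokine MCP-1, the ligand of CCR2. Among the 5 low genes it had the largest difference in counts from Control. It had 3, 21 and 25 counts in the 7 d libraries, 6, 5 and 5 in the 1 d libraries and 3, 2 and 0 in the Control libraries. In CPM these were 0.166, 1.25 and 1.40 at 7 d, 0.336, 0.315 and 0.353 at 1 d and 0.157, 0.107 and 0 in Control. The libraries of each time after surgery lay above all 3 Control libraries. At 7 d replicates 2 and 3 held 21 and 25 of the 49 counts, and replicate 1 lay below the 1 d libraries and had as many counts as Control replicate 1. Ranges that did not overlap with Control were found in 11.4% of the 3151 low rows at 7 d and in 14.4% at 1 d. Ccl2, with 70 counts in total, lay at the top of the span of these rows, so these shares may be too low a reference. Among genes that passed the filter the share at 7 d against Control was 16.2%.

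The summed Ccl2 counts were 49 at 7 d, 16 at 1 d and 5 in Control. Scaled by depth, Ccl2 at 7 d was 11.0 times Control, with a 95% counting interval of 4.39 to 35.3. At 1 d it was 3.94 times Control (1.38 to 13.8), and 7 d was 2.78 times 1 d (1.56 to 5.24). Over libraries, the exact two-sided permutation test of mean CPM gave p = 0.1 at 7 d and p = 0.1 at 1 d, each against Control. This is the smallest value that 3 against 3 can give, and it only restates that the ranges do not overlap. The same test also gave 0.1 for Il1b, Tnf and Cxcl10 at 7 d against 1 d. It did so for Il6 and Icam1 at 7 d against Control, so the value does not set Ccl2 apart. With no filter the log2 fold change was 3.34 at 7 d against Control (SE 0.848, unadjusted p = 0.00131, edgeR adjusted p = 0.0941) and 1.87 at 1 d against Control (SE 0.930, adjusted p = 0.224). Leaving out Control replicate 1 gave 2.56 at 1 d and leaving out Control replicate 3 gave 1.28, and neither was called. The step between the times was 1.47 (SE 0.727, adjusted p = 0.202). In the same fit the 7 d value was called without Control replicate 1 (log2 fold change 4.02, adjusted p = 0.0307) and without 7 d replicate 1 (3.84, adjusted p = 0.0350), and the adjusted p was up to 0.345 over the 9 left-out libraries. Its log2 fold change lay between 2.77 and 4.02 over these 9 fits.

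Cxcl1 encodes a neutrophil-attracting chemokine that acts on CXCR2. It had 3, 1 and 4 counts at 7 d, 4, 0 and 7 at 1 d and 1, 1 and 4 in Control, and the 3 ranges overlapped. The highest value, 0.494 CPM, was in 1 d replicate 3, and the same time held a library with no count. Its summed counts gave ratios to Control of 1.49 at 7 d (95% interval for counting error 0.454 to 5.22) and 2.26 at 1 d (0.765 to 7.43). With no filter the log2 fold change was 0.55 at 7 d (edgeR adjusted p = 0.914) and 1.16 at 1 d (adjusted p = 0.545). Without Control replicate 3 these were 1.40 and 1.99, and without 1 d replicate 3 the 1 d value was 0.20.

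**Figure D2:**
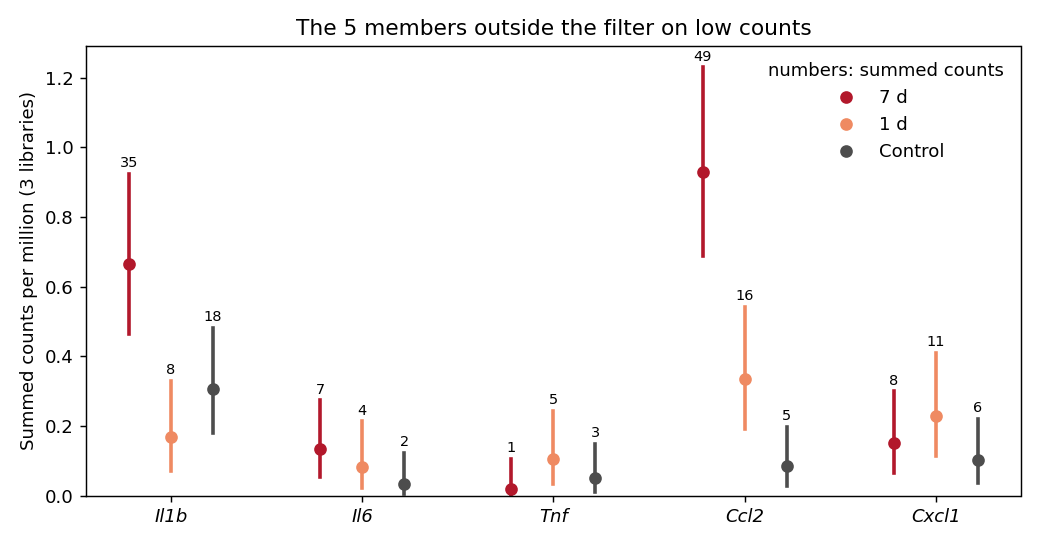
Summed CPM of 3 libraries for the 5 members outside the filter, at 7 d, at 1 d and in Control, with exact 95% Poisson intervals (lines) and the summed count above each line. The interval of Ccl2 at 7 d, 0.688 to 1.23, lies above that of Control, 0.0275 to 0.198, whereas the intervals of Il6, Tnf and Cxcl1 overlap between all groups. That of Il1b at 7 d, 0.463 to 0.924, lies above that of 1 d, 0.0721 to 0.329, and overlaps that of Control. The lines cover counting error only and not the spread between libraries. The lowest 7 d library had 0.166 CPM of Ccl2.

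Cxcl10 encodes the interferon-induced chemokine IP-10, which attracts T cells through CXCR3. Its values were set by 2 libraries rather than by a group. It had 20, 23 and 134 counts at 7 d, 18, 9 and 8 at 1 d and 243, 12 and 23 in Control. In CPM these were 1.11, 1.37 and 7.51 at 7 d, 1.01, 0.567 and 0.565 at 1 d and 12.7, 0.642 and 1.08 in Control. The high libraries were 7 d replicate 3 and Control replicate 1, and the lower of them stood 5.48 times above the highest of the other 7 libraries. The ranges of 7 d and of 1 d overlapped that of Control, and the 7 d libraries all lay above the 1 d libraries, as 48.8% of tested genes lay wholly above or below between these times.

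The mean of Cxcl10 was 3.33 ± 3.62 CPM at 7 d, 0.713 ± 0.254 CPM at 1 d and 4.82 ± 6.85 CPM in Control (SD, n = 3 each), so the SD exceeded the mean at 7 d and in Control. Its biological coefficient of variation in the fit was 0.951, higher than that of 99.3% of the tested genes. The log2 fold change was -0.53 at 7 d against Control (95% interval -3.32 to 2.27, edgeR adjusted p = 0.910), -2.73 at 1 d against Control (-5.92 to 0.47, adjusted p = 0.198) and 2.20 at 7 d against 1 d (-1.01 to 5.41, adjusted p = 0.275). A several-fold change lay within each of these intervals. Without Control replicate 1 the log2 fold change was 1.93 at 7 d against Control (adjusted p = 0.294) and -0.27 at 1 d against Control (adjusted p = 0.883), so the sign of the first turned round. Without 7 d replicate 3 the value at 7 d against 1 d was 0.77 (adjusted p = 0.734). Over the 25 alternatives that returned one, the adjusted p of Cxcl10 ranged from 0.294 to 1 at 7 d against Control, from 0.133 to 0.943 at 1 d against Control and from 0.0716 to 0.813 at 7 d against 1 d.

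Icam1 encodes an adhesion molecule of endothelium and glia that binds leukocyte integrins, and it was the least variable of the 3 tested genes, with a biological coefficient of variation of 0.193 against 0.290 for Ptgs2. It had 102, 109 and 113 counts at 7 d, 120, 92 and 70 at 1 d and 101, 73 and 113 in Control. Scaled by depth, these were 5.65, 6.49 and 6.33 CPM at 7 d, 6.71, 5.80 and 4.94 CPM at 1 d and 5.29, 3.91 and 5.33 CPM in Control. All 7 d libraries lay above all Control libraries, which was so, in either direction, for 16.2% of tested genes, and the 1 d libraries overlapped both other groups.

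Mean Icam1 was 6.16 ± 0.444 CPM at 7 d, 5.82 ± 0.884 CPM at 1 d and 4.84 ± 0.810 CPM in Control (SD, n = 3 each). It was 1.27 times the Control level at 7 d (95% interval 0.950 to 1.70, edgeR adjusted p = 0.514) and 1.20 times at 1 d (0.898 to 1.61, adjusted p = 0.346). Between the times the ratio of 7 d to 1 d was 1.06 (0.790 to 1.41, adjusted p = 0.790). A 2-fold change in either direction lay outside each of these intervals, while a change of 1.5-fold upward from Control lay inside them. Over 26 alternatives the adjusted p was never below 0.332 at 7 d against Control or 0.224 at 1 d against Control.

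Ptgs2 encodes cyclooxygenase-2, the inducible enzyme that starts prostaglandin synthesis and that some forebrain neurons also express without injury. It had 54, 35 and 46 counts at 7 d, 61, 40 and 54 at 1 d and 107, 46 and 63 in Control. In CPM these were 2.99, 2.08 and 2.58 at 7 d, 3.41, 2.52 and 3.81 at 1 d and 5.60, 2.46 and 2.97 in Control. The 3 groups overlapped, and the single high library was Control replicate 1, the library in which Cxcl10 was highest too.

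The mean of Ptgs2 was 2.55 ± 0.455 CPM at 7 d, 3.25 ± 0.661 CPM at 1 d and 3.68 ± 1.69 CPM in Control (SD, n = 3 each). The ratio to Control was 0.695 at 7 d (95% interval 0.422 to 1.14, edgeR adjusted p = 0.569) and 0.883 at 1 d (0.539 to 1.45, adjusted p = 0.733), and that of 7 d to 1 d was 0.787 (0.476 to 1.30, adjusted p = 0.466). A doubling lay outside all 3 intervals. A halving lay inside that of 7 d against Control and that of 7 d against 1 d. Without Control replicate 1 the log2 fold change from Control was -0.09 at 7 d and 0.25 at 1 d, against -0.53 and -0.18 with it, and neither was called (adjusted p = 0.907 and 0.584).

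**Figure D3:**
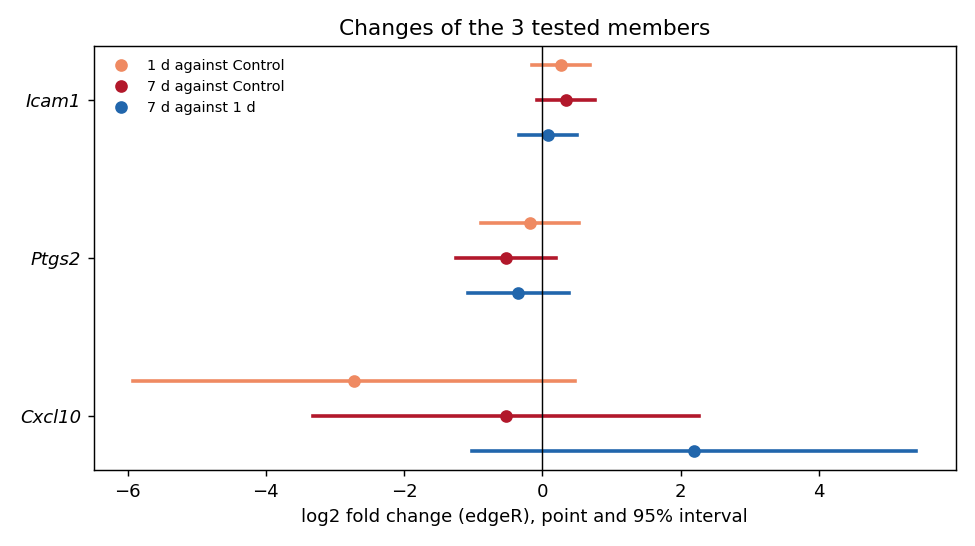
Log2 fold changes from the edgeR fit (points) with 95% intervals (lines) for Icam1, Ptgs2 and Cxcl10, at 1 d against Control, at 7 d against Control and at 7 d against 1 d. All 9 intervals cross 0, and those of Icam1 run from -0.34 to 0.76 at the widest, whereas those of Cxcl10 run from -5.92 to 5.41.

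By role, the cytokine genes Il1b, Il6 and Tnf had 0 of 3 members with enough counts for the filter, the chemokine genes had 1 of 3 (Cxcl10), and Icam1 and Ptgs2 both had enough. The direction of the fitted differences was mixed. With no filter, at 7 d against Control, the log2 fold change was above 0 for Il1b, Il6, Ccl2, Cxcl1 and Icam1 and below 0 for Tnf, Cxcl10 and Ptgs2, and at 1 d it was above 0 for Il6, Tnf, Ccl2, Cxcl1 and Icam1 and below 0 for Il1b, Cxcl10 and Ptgs2. Without 1 d replicate 3 the 1 d values of Il6, Tnf and Cxcl1 were -0.16, 0.21 and 0.20, against 1.17, 0.97 and 1.16 with it. Without Control replicate 1, Cxcl10 was 1.92 at 7 d and -0.27 at 1 d, against -0.54 and -2.74 with it. Ptgs2 was then -0.097 at 7 d and 0.25 at 1 d, against -0.53 and -0.19. Tnf at 7 d (-1.13) and Il1b at 1 d (-1.01) stayed below 0 without that library. Both comparisons used the same Control libraries. Over all genes of the fit with no filter and all 9 libraries, the median log2 fold change was -0.0028 at 7 d and 0 at 1 d. Counts of different genes depend on transcript length, so the order of counts among the 8 is not an order of transcript levels.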

How the data were processed

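The data are 1 table of unnormalized counts, which the authors deposited with whole numbers for each gene in 9 libraries. HISAT2 (2.0.5), featureCounts (1.5.0-p3) and also DESeq2 (1.16.1) appear among the tools in the submitters' processing notes. Genome build, annotation and strand setting: not given in the sources used here, so overlapping or antisense genes may share reads. Groups came from the sample titles.

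Genes were filtered by edgeR's filterByExpr, which left 17345 of 34784 rows, scaled by TMM and tested in 1 quasi-likelihood fit of all libraries, with no term besides group. The two-sided p-values were adjusted over all genes tested (Benjamini-Hochberg). Standard errors were derived from the fold change and its F statistic. Members outside the filter got exact 95% Poisson intervals of summed counts and exact binomial intervals of count ratios. Software was R 4.3.3 with edgeR 4.0.16, DESeq2 1.42.0 and limma 3.58.1, and SciPy 1.17.1. The test was checked on simulated counts. The simulated spread was the same for every gene, so the check does not cover genes as variable as Cxcl10.

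The members and lists were chosen with earlier results of these data known, and the motifs with the sequences in view. All 8 members are named. Other genes were to be named from 20 lists of pathway genes and cell type markers, but the RefSeq gene table of build GRCr8 pairs 0 of its 47357 rows with an Ensembl ID, so no list could be matched and none was tested. The genes most like a member were to be named for members called changed, of which there were none. Alternatives were other scalings and filters, DESeq2, limma-voom, fits of 2 groups, the replicate number as a block, leaving out each library and, added after seeing the data, leaving out each library with no filter.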

Additional observations from a re-analysis of the deposited data

How the results depend on the processing

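The number of members called stayed at 0 under each of the other scalings, filters, tests and designs that kept all libraries of the groups compared. Except with no filter, these settings tested only Cxcl10, Icam1 and Ptgs2, and DESeq2 gave no p-value for Cxcl10. Their 0 therefore says nothing about the 5 members outside the filter. With a library left out it ranged from 0 to 1 at 7 d against 1 d, and was 0 in both comparisons with Control. The calls were Il1b without Control replicate 1, Control replicate 3 or 1 d replicate 3 (adjusted p = 0.0416, 0.0461 and 0.0234) and Ccl2 without 7 d replicate 1 (adjusted p = 0.0446). With fewer libraries in a group the filter asks for fewer libraries, so each of these genes passed it in 7 of the 9 such fits, through the 7 d group in which it is high. With no filter, Il1b without Control replicate 3 and Ccl2 without 7 d replicate 1 were not called at 7 d against 1 d (adjusted p = 0.0532 and 0.0538), while Il1b without Control replicate 1 or 1 d replicate 3 was (adjusted p = 0.0440 and 0.0280). With no filter and a library left out, the number ranged from 0 to 1 at 7 d against Control and from 0 to 1 at 7 d against 1 d.

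Of the 153 log2 fold changes of Cxcl10, Icam1 and Ptgs2 under these settings and over left-out libraries, 147 kept their sign and none was called. Those that turned round were Cxcl10 at 7 d against Control (0.14 by limma-voom and 0.13 with the replicate block, and -1.95 to 1.93 over left-out libraries), Icam1 at 7 d against 1 d (-0.0042 with library totals as the only scaling, -0.0152 to 0.21 over left-out libraries) and Ptgs2 at 1 d against Control (-0.40 to 0.25 over left-out libraries). With no filter and a library left out, the same 3 ranged from -1.96 to 1.92, from -0.0164 to 0.20 and from -0.41 to 0.25. The cause was not tested.

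Over all genes the calls numbered 3540 at 1 d against Control, 177 at 7 d against Control and 5069 at 7 d against 1 d. Over left-out libraries they ranged from 1440 to 4595, from 7 to 739 and from 3071 to 6070. DESeq2 called 523 at 7 d against Control, and fits of only the compared groups called 2066 at 1 d and 28 at 7 d. The replicate block gave 74 at 7 d against Control. Over the tested genes, deviations from the group means correlated at -0.155 to 0.0351 between libraries with the same number. The labels do not say what the numbers mean, and these values cannot show whether the libraries were paired.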

Other observations

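The tested genes with the Cxcl10 pattern were counted. The pattern was taken from the values of Cxcl10 itself, and no other pair of libraries was counted for reference. Counting Cxcl10, 3 of 17345 genes were at least 4 times higher in both 7 d replicate 3 and Control replicate 1 than in the highest of the other 7 libraries. Over the 9 libraries, 18 genes had a Pearson correlation of log2 CPM with Cxcl10 of at least 0.9, the highest at 0.976. These counts were chosen after the values were seen and are a description of these libraries, in which 2 high points carry the correlation.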
